A study of Homo sapiens with 24 samples.

Results

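The genes described here are the 5 NF-kappaB subunits NFKB1, NFKB2, RELA, RELB and REL and 5 genes that NF-kappaB is known to induce, NFKBIA, TNFAIP3, BIRC3, ICAM1 and TRAF1. They were found by symbol in a table of read counts of 23354 genes, and all 10 were present. Of these, 10 had enough reads to be tested in KG-1a and 9 in MV4-11, where BIRC3 was at or near 0.

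NF-kappaB is a family of dimeric transcription factors. In resting cells the dimers are held in the cytoplasm by inhibitors such as IκBα, the product of NFKBIA, and a kinase complex (IKK) that answers to cytokine and pattern receptors marks the inhibitor for destruction. NFKB1 and NFKB2 encode precursors (p105 and p100) that are processed to the DNA-binding subunits p50 and p52, whereas RELA, RELB and REL carry the transactivation domains. Several targets act back on the pathway. NFKBIA restores the inhibitor, TNFAIP3 encodes the ubiquitin-editing enzyme A20, BIRC3 the ubiquitin ligase cIAP2 and TRAF1 an adaptor of TNF receptors, while ICAM1 encodes an adhesion molecule of the cell surface. In acute myeloid leukemia (AML), NF-kappaB activity is known from the primitive cells.

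RNA was sequenced from 2 AML cell lines, MV4-11, a monocytic line with a KMT2A rearrangement and an internal tandem duplication of FLT3, and KG-1a, an immature CD34+ line. Each line was left untreated or was given 1 μM 8-chloro-adenosine (8CA) or 1 μM 8-amino-adenosine (8AA), adenosine analogs that carry a chlorine or an amino group at the same carbon of the base, for 8 h or 24 h. The 12 groups hold 2 libraries each, lettered A and B, 24 libraries in all, and the hours of the untreated groups come from the sample titles alone. The 8CA and 8AA groups of a line and time share the same 2 untreated libraries. The labels do not say whether libraries A and B came from separate cultures, so that p-values measure the spread between these libraries, which may be technical. With 2 libraries per group, groups can lie apart with no difference behind them. Where groups are said not to overlap, this is a description and not a test. The share of all genes whose groups lie apart was not counted.

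Total counts per library lay between 18633963 and 24520078. Within a group, the replicates differed by more than sampling noise in every group (chi-square per degree of freedom 1.43 to 5.20 in 11 groups), and the libraries of KG-1a treated with 8AA for 24 h differed most (12.3). Among the markers checked in the untreated libraries, FLT3, MEIS1, CD33 and LYZ were high in MV4-11 and at or near 0 in KG-1a, and CD34 and CD7 were the reverse. HOXA9, listed as a marker of MV4-11, was lower there (3.74 ± 0.13 RPKM, reads scaled for exon length and library size; SD, n = 4) than in KG-1a (11.8 ± 0.83), and CD3E, a T cell gene, had 15.6 ± 3.3 RPKM in KG-1a with CD8A near 0. In bulk RNA a lower level can mean fewer cells with the transcript or less of it in each cell, and these cannot be told apart.

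Several of these genes are known for kappaB sites near their own start sites, so the 250 bases before the start sites were read from the RefSeq promoter table (GRCh38.p14), which held 15 windows for 9 of the 10 genes. RELB is named only. The kappaB consensus GGGRNNYYCC (R is A or G, Y is C or T, N is any base) was searched for exact matches on both strands, with overlapping matches joined. It was found in 7 of the 15 windows (46.7%) and in 6 of the 9 genes (66.7%), against 3498 of 35114 windows of the table (9.96%) and 2224 of 15556 genes of the counts table (14.3%). The members were chosen for their known place in this pathway. A share above that of all genes was therefore built into the choice and is no result of these data. A match is a string of letters and not evidence of binding. The lack of a match is not evidence that no site is there, since a site that departs from the consensus is missed. The 7 windows with a match are shown 5′ to 3′ on the strand of the gene, with the matched bases in capitals, so that they can be set beside the changes of the members. Of the 6 genes that rose in KG-1a with each analog at 24 h, NFKB2, NFKBIA, TNFAIP3 and BIRC3 held a match, ICAM1 held no exact match and RELB was not searched. REL and NFKB1, which did not rise there, held a match, and TRAF1 and RELA held no exact match. The ICAM1 window holds tggaaattcc, which departs from the consensus in its first letter only. Strings that depart in 1 letter also stand in windows of genes that did not rise. The first RELA window holds ggagcatcct, which departs from the reverse complement of the consensus in its last letter. The second TRAF1 window holds gggagggccc, which departs from the consensus in its seventh letter. For NFKB2, the second and the third of its start sites are given.
NFKB2, chr10:102394328-102394577, plus strand: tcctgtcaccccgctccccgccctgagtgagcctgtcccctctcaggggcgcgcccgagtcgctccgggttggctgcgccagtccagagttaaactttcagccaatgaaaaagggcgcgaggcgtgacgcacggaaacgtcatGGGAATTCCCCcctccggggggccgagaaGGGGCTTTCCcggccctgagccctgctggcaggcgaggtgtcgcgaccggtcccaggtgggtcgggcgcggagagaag
NFKB2, chr10:102395455-102395704, plus strand: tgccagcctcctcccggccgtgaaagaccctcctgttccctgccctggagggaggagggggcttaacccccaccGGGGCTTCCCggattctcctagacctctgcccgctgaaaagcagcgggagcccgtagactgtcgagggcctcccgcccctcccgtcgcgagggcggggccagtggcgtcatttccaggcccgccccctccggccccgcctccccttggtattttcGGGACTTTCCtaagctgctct
NFKBIA, chr14:35404750-35404999, minus strand: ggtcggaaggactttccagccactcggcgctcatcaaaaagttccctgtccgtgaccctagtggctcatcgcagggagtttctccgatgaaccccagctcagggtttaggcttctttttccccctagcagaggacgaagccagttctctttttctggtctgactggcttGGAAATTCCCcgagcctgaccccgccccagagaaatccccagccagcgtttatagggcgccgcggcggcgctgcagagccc
TNFAIP3, chr6:137867009-137867258, plus strand: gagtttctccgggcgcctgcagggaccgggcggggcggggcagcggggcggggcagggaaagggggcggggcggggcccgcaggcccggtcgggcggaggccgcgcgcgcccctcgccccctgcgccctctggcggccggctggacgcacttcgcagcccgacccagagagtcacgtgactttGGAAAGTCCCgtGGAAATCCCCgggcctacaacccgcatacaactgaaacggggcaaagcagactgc
BIRC3, chr11:102317234-102317483, plus strand: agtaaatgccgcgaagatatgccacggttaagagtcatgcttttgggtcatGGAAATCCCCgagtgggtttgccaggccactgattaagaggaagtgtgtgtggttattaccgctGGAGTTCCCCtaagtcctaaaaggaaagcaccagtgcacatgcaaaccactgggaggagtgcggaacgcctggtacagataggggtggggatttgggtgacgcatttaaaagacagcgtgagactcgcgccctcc
REL, chr2:60881324-60881573, plus strand: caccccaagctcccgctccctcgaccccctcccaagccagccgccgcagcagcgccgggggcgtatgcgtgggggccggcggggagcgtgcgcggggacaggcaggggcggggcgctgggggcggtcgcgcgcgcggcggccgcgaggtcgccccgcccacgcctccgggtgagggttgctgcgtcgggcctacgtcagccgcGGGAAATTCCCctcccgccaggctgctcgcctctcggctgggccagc
NFKB1, chr4:102501109-102501358, plus strand: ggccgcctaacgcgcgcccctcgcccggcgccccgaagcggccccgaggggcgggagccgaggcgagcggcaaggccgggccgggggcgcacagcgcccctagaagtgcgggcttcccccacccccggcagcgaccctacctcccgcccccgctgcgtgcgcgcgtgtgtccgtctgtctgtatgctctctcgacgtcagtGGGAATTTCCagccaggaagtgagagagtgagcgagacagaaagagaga
The matches of NFKB2 began 107 and 78 bases before the second start site and 176 and 21 before the third, that of NFKBIA 81, those of TNFAIP3 67 and 55, those of BIRC3 199 and 135, that of REL 47 and that of NFKB1 49.

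In untreated cells, the lines differed most in BIRC3. The untreated libraries held 0 to 3 reads of BIRC3 in MV4-11 and 842 to 1098 in KG-1a. Over all 12 libraries of a line, treated ones included, MV4-11 had 0 to 5 reads per library, 23 together, with 1 library at 0. KG-1a had 842 to 2085 reads per library. BIRC3 was therefore not tested in MV4-11. In the fit of all 24 libraries it passed the filter through its KG-1a reads. It was left out of all comparisons between lines because of its MV4-11 reads, and no fold between lines is given. Per exon length, RELA was the highest of the subunits in each line, with 27.0 ± 0.84 RPKM in the 4 untreated MV4-11 libraries and 46.1 ± 2.29 in the 4 of KG-1a (mean ± SD, n = 4). NFKB1 was next among the subunits, with 8.35 ± 0.34 in MV4-11 and 26.4 ± 0.89 in KG-1a. The inhibitor gene NFKBIA was the second-highest member in MV4-11 (20.5 ± 1.09 RPKM) and the third in KG-1a (11.99 ± 0.37).

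Below these, MV4-11 held NFKB2 at 6.13 ± 0.32, TNFAIP3 at 4.62 ± 1.08, REL at 3.38 ± 0.71, RELB at 3.29 ± 0.40, ICAM1 at 1.98 ± 1.17 and TRAF1 at 1.08 ± 0.18 RPKM. NFKB2 lay above the rest, whereas neighbours from TNFAIP3 down to TRAF1 overlapped in MV4-11, so their order is not set there. In KG-1a the levels of ICAM1 (7.22 ± 0.64), RELB (6.89 ± 0.46), BIRC3 (6.82 ± 0.48), NFKB2 (5.78 ± 0.40), REL (5.01 ± 0.47) and TNFAIP3 (4.73 ± 0.79) lay close together. ICAM1, RELB and BIRC3 overlapped one another and lay above NFKB2, and NFKB2 overlapped REL, and REL overlapped TNFAIP3. TRAF1 was the lowest in KG-1a at 0.58 ± 0.16 RPKM.

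**Figure D1:**
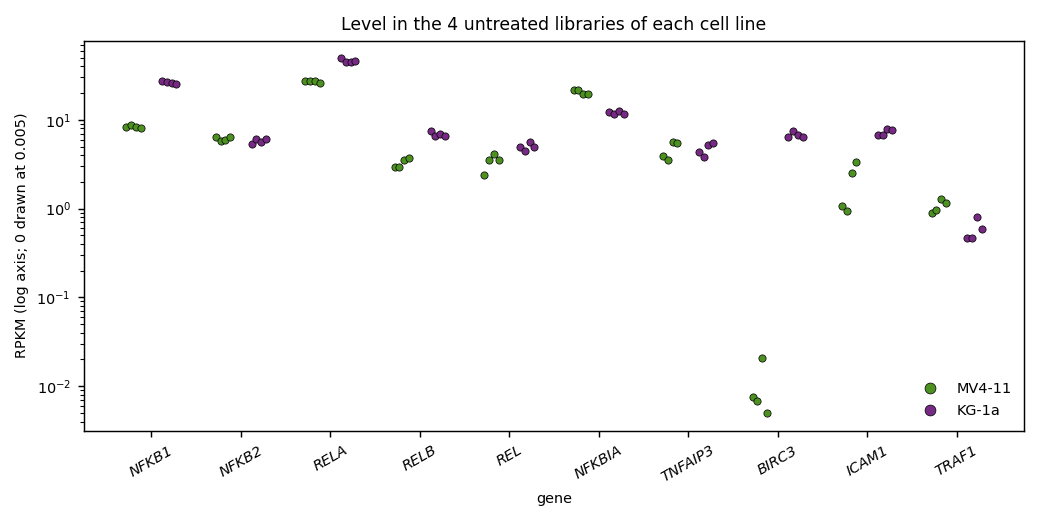
Level of the 10 genes in untreated cells, in RPKM on a log axis, with 1 point for each of the 4 untreated libraries of MV4-11 (green) and KG-1a (purple), in the order 8 h A, 8 h B, 24 h A, 24 h B. NFKB1, RELA, RELB, REL and ICAM1 sit higher in KG-1a, NFKBIA and TRAF1 higher in MV4-11, and BIRC3 is at or near 0 in MV4-11.

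Between the untreated lines, 7 of 9 members differed at 8 h and 7 of 9 at 24 h (edgeR quasi-likelihood test in a fit of all 24 libraries, Benjamini-Hochberg adjusted p below 0.05), beside 82.2% and 82.0% of all genes tested, so that a share of this size is that of genes at large. ICAM1 was lower in MV4-11, at a log2 difference of −2.73 at 8 h (SE 0.13, adjusted p = 8.03e-16) and −1.40 at 24 h (SE 0.10, adjusted p = 5.27e-12). NFKB1 was lower in MV4-11, at a log2 difference of −1.66 at 8 h and again −1.66 at 24 h, and so were RELB (−1.25 and −0.89), RELA (−0.77 and −0.77) and REL (−0.66 and −0.48). NFKBIA was higher in MV4-11 (0.84 and 0.70), and so was TRAF1 (1.00 and 0.82). NFKB2 (0.09 and 0.07) and TNFAIP3 (−0.14 and 0.05) did not pass the test. For REL at 24 h, the adjusted p was 0.0645 without MV4-11 untreated replicate B (−0.38) and 0.067 without KG-1a untreated replicate A (−0.38).

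Some members also differed between the untreated 8 h and the untreated 24 h groups. Whether these groups were cultured and harvested together is not given, so time in culture cannot be told apart from batch. In MV4-11, 2 of 9 rose between untreated 8 h and untreated 24 h, where 5.54% of all genes changed. ICAM1 rose from 3.41 and 2.96 CPM (reads scaled to library size by TMM) to 7.96 and 10.6 (log2 change 1.55, SE 0.16, adjusted p = 2.91e-05), and TNFAIP3 from 18.6 and 16.5 to 26.3 and 26.2 CPM (0.58, SE 0.09, adjusted p = 8.9e-04). In KG-1a, 1 of 10 rose, beside 4.45% of all genes. That gene was TNFAIP3, which went from 22.0 and 19.1 to 26.4 and 28.2 CPM (0.41, SE 0.08, adjusted p = 0.00955). The KG-1a call was lost without untreated 8 h replicate B (0.31, adjusted p = 0.125), 24 h replicate A (0.47, 0.055) or 24 h replicate B (0.36, 0.129). Each treated group below is compared with the untreated group of its own time.

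At 24 h the log2 response to the analogs was higher in KG-1a than in MV4-11 for several members. In KG-1a at 24 h, 6 of the 10 members rose with 8CA (NFKB2, RELB, NFKBIA, TNFAIP3, BIRC3 and ICAM1), and these same 6 rose with 8AA. NFKB1 fell with 8AA. The largest change was that of TNFAIP3 with 8AA (3.26-fold, log2 1.71, SE 0.07). In MV4-11 at 24 h no member passed the test with 8CA in the main fit, though some did under other settings given below. With 8AA, NFKBIA rose (log2 0.22) and ICAM1 fell (−0.53) there. Markers moved in KG-1a as well. CD34, a progenitor marker, went from 423.8 and 431.5 CPM untreated at 24 h to 349.2 and 339.7 with 8CA and 656.4 and 583.6 with 8AA, and CD3E, a T cell marker, from 37.9 and 38.2 to 32.4 and 33.7 and to 81.7 and 69.8. CD7 stayed between 32.6 and 38.9 CPM in these 6 libraries, and CD8A at 1 to 5 reads. The part of these markers in the changes of the members was not tested.

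**Figure D2:**
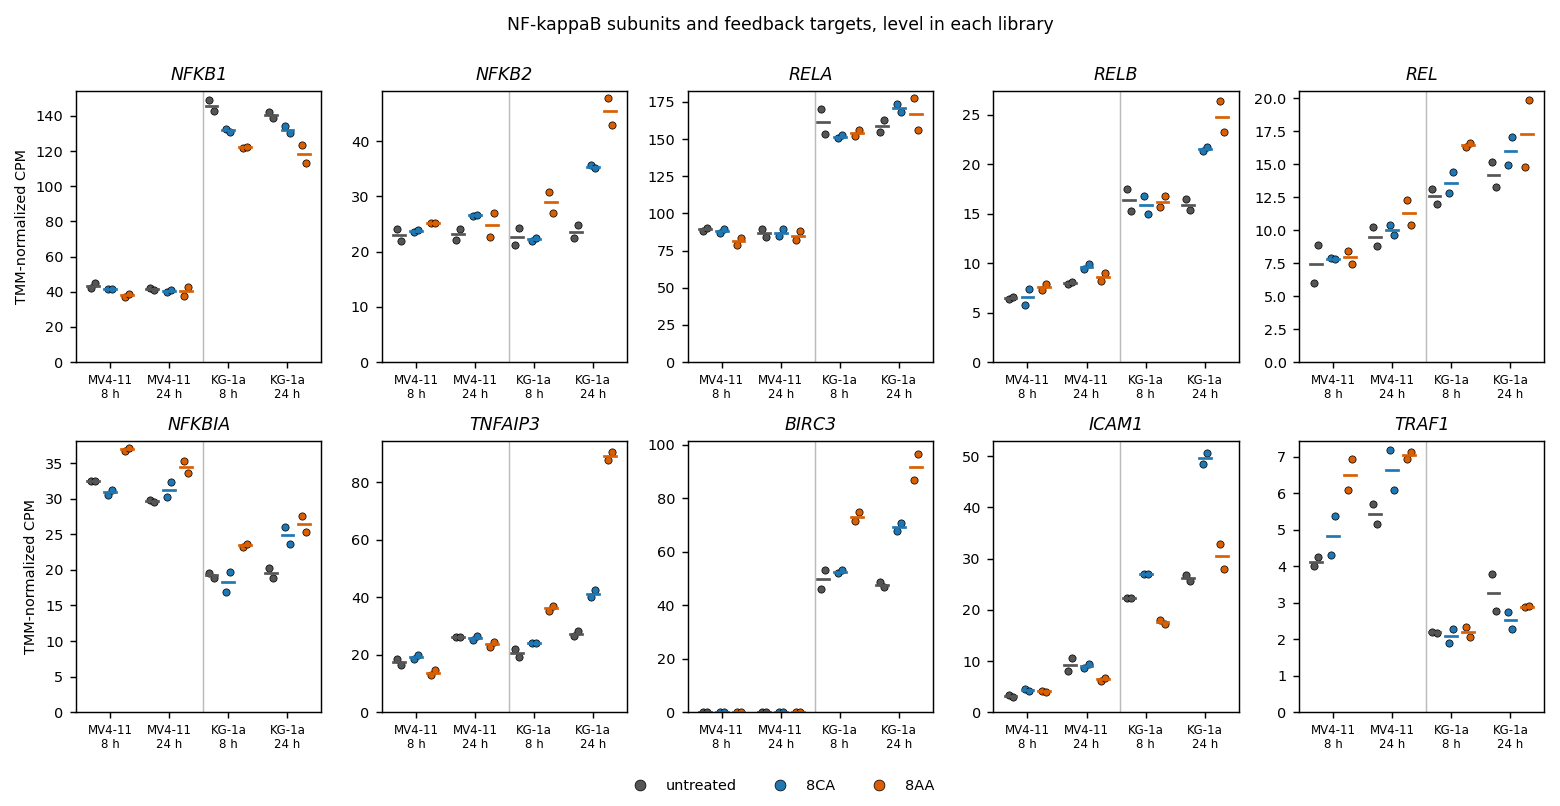
TMM-normalized CPM of each gene in all 24 libraries, by line and time, with untreated libraries in gray, 8CA in blue and 8AA in orange; points are libraries A (left) and B (right) and bars their mean, and each panel has its own axis from 0. In KG-1a at 24 h, TNFAIP3 and BIRC3 step up from untreated to 8CA to 8AA, whereas ICAM1 is highest with 8CA.

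Counted by comparison, KG-1a treated with 8CA for 24 h had 6 of 10 members higher and 0 lower, where 23.4% of all genes were higher and 24.0% lower. KG-1a treated with 8AA for 24 h had 6 higher and 1 lower, beside 25.4% and 26.6% of all genes. At 8 h with 8AA, KG-1a had 5 higher (NFKB2, REL, NFKBIA, TNFAIP3 and BIRC3) and 2 lower (NFKB1 and ICAM1), beside 16.7% and 18.0%. With 8CA at 8 h, 0 of 10 members passed edgeR's test in KG-1a and 0 passed with DESeq2, with 3 at an unadjusted p under 0.05, in a comparison where 0.700% of all genes were higher and 0.181% lower.

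Fewer members were called in MV4-11. With 8AA at 8 h, 2 of 9 members rose (NFKBIA and TRAF1) and 2 fell (NFKB1 and TNFAIP3), beside 13.6% of all genes higher and 15.6% lower. With 8AA at 24 h, 1 rose and 1 fell, beside 13.9% and 15.3%. With 8CA, 0 of 9 passed edgeR's test at 8 h (1 at an unadjusted p under 0.05, and 0 with DESeq2), beside 4.58% of all genes higher and 5.77% lower. With 8CA at 24 h, 0 of 9 passed it as well (3 at an unadjusted p under 0.05, and 0 with DESeq2), although 21.2% of all genes were higher and 22.7% lower. This 0 moved with other settings. It became 2 with library size only, upper-quartile scaling, a term for the replicate letters or a fit of the 6 libraries of that time. It became 1 with no filter or a stricter filter. The median log2 fold change of the members was 0.39 in KG-1a with 8CA and 0.36 with 8AA at 24 h, against 0.07 and 0.10 in MV4-11, and the median of all genes tested lay between 0.0022 and 0.013 in these 4 comparisons. How all calls split by direction varied with the scaling. In the 4 MV4-11 comparisons and the 2 of KG-1a with 8AA, 51.2% to 55.8% of calls were lower under TMM and 35.5% to 41.8% when libraries were scaled by their size only. No called member changed direction under any of the 4 scalings.

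**Figure D3:**
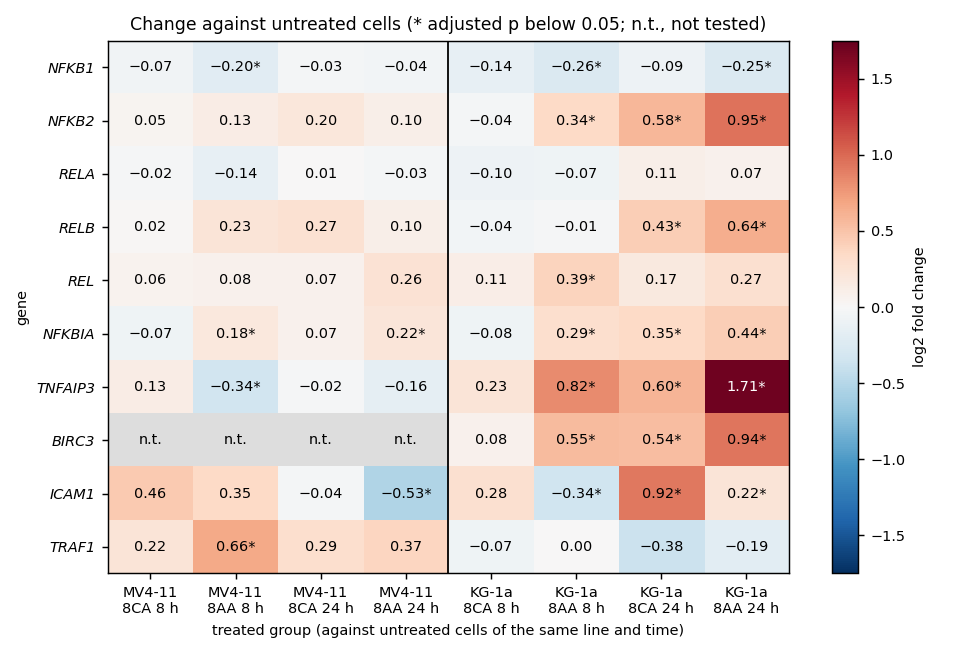
Log2 fold change of each gene against untreated cells of the same line and time, printed in each cell and colored from blue (lower) to red (higher), for the 4 treated groups of MV4-11 (left) and KG-1a (right); an asterisk marks an edgeR adjusted p below 0.05, and n.t. marks BIRC3 in MV4-11, which was not tested. The red block is in the KG-1a columns at 24 h, led by TNFAIP3 with 8AA at 1.71.

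Of the subunits, NFKB2 (p100/p52) and RELB rose together in KG-1a at 24 h. NFKB2 (chromosome 10, 104153867 to 104162286, plus strand; positions of members are those of the counts table, which differ from GRCh38, and hg19 is the other build in the submitters' processing notes) was at 22.5 and 24.7 CPM in untreated KG-1a at 24 h, at 35.6 and 35.1 with 8CA and at 47.8 and 43.0 with 8AA. All treated libraries lay above the untreated ones, and those with 8AA above those with 8CA. The log2 fold change was 0.58 with 8CA (SE 0.09, adjusted p = 5.85e-05) and 0.95 with 8AA (SE 0.09, adjusted p = 2.37e-07).

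At 8 h NFKB2 was at 21.2 and 24.2 CPM untreated, at 21.9 and 22.5 with 8CA and at 30.8 and 27.0 with 8AA in KG-1a. The 8AA libraries lay above the others, and the 8CA libraries lay within the untreated range. The change was 0.34 with 8AA (SE 0.09, adjusted p = 0.00706) and −0.04 with 8CA (95% interval −0.23 to 0.16). The 8AA call was lost without untreated replicate A (0.26, adjusted p = 0.0812) or 8AA replicate A (0.25, 0.103). In MV4-11, NFKB2 took values between 0.05 and 0.20 in the 4 comparisons, of which the highest, with 8CA at 24 h, had an adjusted p of 0.0634.

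RELB (chromosome 19, 45504707 to 45541456, plus strand), whose protein pairs with p52, was at 16.5 and 15.4 CPM in untreated KG-1a at 24 h, at 21.3 and 21.8 with 8CA and at 26.4 and 23.2 with 8AA. The 3 groups did not overlap. The change was 0.43 with 8CA (SE 0.10, adjusted p = 0.0016) and 0.64 with 8AA (SE 0.09, adjusted p = 3.31e-05). At 8 h it was −0.04 with 8CA and −0.01 with 8AA, and the groups overlapped. In MV4-11, RELB lay between 0.02 and 0.27 and was not called.

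NFKB1 (p105/p50; chromosome 4, 103422486 to 103538459, plus strand) went the other way from NFKB2 in KG-1a treated with 8AA. At 8 h it was at 148.8 and 142.6 CPM untreated and at 121.8 and 122.3 with 8AA (−0.26, SE 0.05, adjusted p = 0.00108). At 24 h it was at 142.2 and 138.6 CPM untreated and at 123.6 and 112.9 with 8AA (−0.25, SE 0.05, adjusted p = 7.46e-04). The 8AA libraries lay below the untreated libraries at each time. With 8CA the values were −0.14 at 8 h (adjusted p = 0.22) and −0.09 at 24 h (adjusted p = 0.174). Neither was called, although the 8CA libraries lay below the untreated ones at each time.

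In MV4-11, NFKB1 fell with 8AA at 8 h, from 42.0 and 44.9 to 37.3 and 38.6 CPM (−0.20, SE 0.07, adjusted p = 0.036). This call was lost when untreated replicate B (−0.15, adjusted p = 0.188), 8AA replicate A (−0.17, 0.14) or 8AA replicate B (−0.22, 0.0667) was left out. It was also lost with library size only (adjusted p = 0.0764), upper-quartile scaling (0.0907), DESeq2 (0.0836) and fits of 24 (0.051) or 6 (0.0539) libraries. At 24 h the MV4-11 value was −0.04 with 8AA, and the groups overlapped.

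REL (c-Rel; chromosome 2, 61108752 to 61150178, plus strand) rose in KG-1a with 8AA at 8 h, from 13.2 and 11.98 to 16.3 and 16.6 CPM (0.39, SE 0.13, adjusted p = 0.0284). This call was lost without any of the 4 libraries it rests on, with adjusted p = 0.0517 without untreated replicate A (0.46), 0.178 without untreated replicate B (0.32), 0.0891 without 8AA replicate A (0.40) and 0.11 without 8AA replicate B (0.38). At 24 h with 8AA it was at 14.8 and 19.9 CPM against 15.2 and 13.3 untreated (0.27, adjusted p = 0.0824), with overlapping groups. RELA (p65; chromosome 11, 65421067 to 65430443, minus strand), the highest subunit, passed edgeR's test in 0 of the 8 comparisons (1 at an unadjusted p under 0.05, and 0 with DESeq2), and its changes lay between −0.14 (MV4-11, 8AA, 8 h, adjusted p = 0.0743) and 0.11 (KG-1a, 8CA, 24 h, adjusted p = 0.172).

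Among the genes that restrain the pathway, NFKBIA (chromosome 14, 35870716 to 35873960, minus strand) was the member most often higher with 8AA, called at both times in both lines. In KG-1a at 8 h it was at 19.6 and 18.9 CPM untreated and at 23.3 and 23.7 with 8AA (0.29, SE 0.09, adjusted p = 0.0181). At 24 h it was at 20.2 and 18.9 CPM untreated, at 26.1 and 23.6 with 8CA (0.35, SE 0.09, adjusted p = 0.00426) and at 27.5 and 25.4 with 8AA (0.44, SE 0.09, adjusted p = 5.47e-04). Treated and untreated libraries did not overlap in these comparisons, whereas with 8CA at 8 h they did (−0.08, adjusted p = 0.791).

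In MV4-11, NFKBIA was at 32.6 and 32.5 CPM untreated and at 36.7 and 37.1 with 8AA at 8 h (0.18, SE 0.06, adjusted p = 0.0361). At 24 h it was at 29.9 and 29.5 CPM untreated and at 35.3 and 33.6 with 8AA (0.22, SE 0.06, adjusted p = 0.017). The 8AA libraries lay above the untreated libraries at each time. These calls near the threshold were lost without any of the 4 libraries of the 8 h comparison (0.18, adjusted p = 0.121 and 0.17, 0.136 without untreated A or B; 0.19, 0.084 and 0.18, 0.131 without 8AA A or B), and at 24 h without untreated A (0.22, 0.0632), untreated B (0.19, 0.11) or 8AA A (0.17, 0.153). In KG-1a the 8AA call at 8 h was lost without untreated B (0.26, 0.107), 8AA A (0.30, 0.0639) or 8AA B (0.28, 0.0919), and the 8CA call at 24 h without untreated B (0.30, 0.0517) or 8CA A (0.27, 0.0641). With DESeq2 the adjusted p of the 8AA calls was 0.167 in MV4-11 at 8 h, 0.0856 there at 24 h and 0.0656 in KG-1a at 8 h. The 8AA call at 24 h in KG-1a remained without any 1 of its libraries and with DESeq2.

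TNFAIP3 (A20; chromosome 6, 138188325 to 138204451, plus strand) had the largest change of all members, in KG-1a with 8AA at 24 h. With 8AA at 8 h it rose in KG-1a and fell in MV4-11. In KG-1a at 8 h it was at 22.0 and 19.1 CPM untreated, at 23.9 and 24.0 with 8CA and at 35.4 and 37.0 with 8AA. By 24 h TNFAIP3 stood at 26.4 and 28.2 CPM untreated, at 40.0 and 42.5 with 8CA and at 87.5 and 90.5 with 8AA. The 3 groups did not overlap at either time.

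The log2 fold change of TNFAIP3 in KG-1a was 0.82 with 8AA at 8 h (SE 0.08, adjusted p = 1.33e-06), 0.60 with 8CA at 24 h (SE 0.07, adjusted p = 8.2e-06) and 1.71 with 8AA at 24 h (SE 0.07, adjusted p = 9.55e-11), and with 8CA at 8 h it was 0.23 (adjusted p = 0.226). In MV4-11, 8AA at 8 h brought TNFAIP3 from 18.6 and 16.5 to 13.0 and 14.6 CPM, below both untreated libraries (−0.34, SE 0.09, adjusted p = 0.0113). This MV4-11 call was lost without untreated replicate A (−0.26, adjusted p = 0.107) or 8AA replicate A (−0.26, 0.0907). With 8CA the MV4-11 values were 0.13 at 8 h (adjusted p = 0.407) and −0.02 at 24 h, and with 8AA at 24 h the value was −0.16 (adjusted p = 0.163). TNFAIP3 overlaps the antisense gene LOC100130476 over 1046 bases, and whether strand was used in the counting is not given in the sources used here. That gene had 5 to 77 reads per library, against 265 to 2097 for TNFAIP3.

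BIRC3 (cIAP2; chromosome 11, 102188181 to 102210135, plus strand) rose in KG-1a. At 8 h it was at 46.2 and 53.3 CPM untreated, at 51.9 and 53.2 with 8CA and at 71.5 and 74.9 with 8AA (0.55, SE 0.07, adjusted p = 2.52e-05). By 24 h BIRC3 stood at 48.9 and 46.7 CPM untreated, at 67.6 and 71.0 with 8CA (0.54, SE 0.07, adjusted p = 2.04e-05) and at 87.0 and 96.7 with 8AA (0.94, SE 0.07, adjusted p = 3.64e-08). The groups did not overlap, apart from untreated and 8CA at 8 h (0.08, adjusted p = 0.725). In MV4-11, BIRC3 stayed at 0 to 5 reads per library in every group, treated ones included.

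ICAM1 (chromosome 19, 10381517 to 10397291, plus strand) was lower with 8AA than with 8CA at each time in KG-1a, by the direct test given below. In KG-1a at 8 h it was at 22.3 and 22.3 CPM untreated, at 27.0 and 27.0 with 8CA (0.28, SE 0.08, adjusted p = 0.134) and at 18.0 and 17.2 with 8AA (−0.34, SE 0.08, adjusted p = 0.00514). By 24 h the values were 26.7 and 25.7 untreated, at 48.6 and 50.7 with 8CA (0.92, SE 0.07, adjusted p = 1.24e-07) and at 32.9 and 28.1 with 8AA (0.22, SE 0.08, adjusted p = 0.0249). The 8CA libraries lay above, and the 8AA libraries below, the untreated libraries at 8 h, and all treated libraries lay above at 24 h.

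The fall of ICAM1 with 8AA at 8 h in KG-1a had an adjusted p of 0.0526 without 8AA replicate B (−0.31). The rise with 8AA at 24 h became 0.10 (adjusted p = 0.337) without 8AA replicate A, 0.24 (0.077) without untreated replicate A and 0.19 (0.139) without untreated replicate B. In MV4-11, ICAM1 fell with 8AA at 24 h from 7.96 and 10.6 to 6.14 and 6.72 CPM (−0.53, SE 0.14, adjusted p = 0.00812), with an adjusted p of 0.143 when untreated replicate B (−0.32) and 0.0725 when 8AA replicate A (−0.48) was left out. At 8 h in MV4-11 it was 0.46 for 8CA and 0.35 for 8AA (adjusted p = 0.115 and 0.156), with treated libraries at 3.96 to 4.52 CPM and untreated ones at 2.96 and 3.41.

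TRAF1 (chromosome 9, 123664671 to 123691451, minus strand), at the lowest level of the tested members in KG-1a, rose in MV4-11 with 8AA at 8 h, from 4.01 and 4.25 to 6.09 and 6.93 CPM (0.66, SE 0.15, adjusted p = 0.00333), and this call remained without any 1 of its 4 libraries. In MV4-11 at 24 h it was at 5.72 and 5.15 CPM untreated, at 7.18 and 6.09 with 8CA (0.29, adjusted p = 0.0967) and at 6.94 and 7.15 with 8AA (0.37, adjusted p = 0.0523). All treated libraries lay above the untreated ones there. In KG-1a the values lay between −0.38 and 0.00, with 40 to 75 reads per library, and none passed edgeR's test.

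Since 8CA and 8AA were given at the same dose and times, they were compared directly in 4 comparisons, over 38 member values, with p-values adjusted over all genes tested. In KG-1a, 5 of 10 members differed at 8 h, where 30.4% of all genes did, and 5 of 10 at 24 h, where 42.0% did. TNFAIP3 was higher with 8AA than with 8CA by a log2 difference of 0.59 at 8 h (SE 0.07, adjusted p = 2.77e-05) and 1.11 at 24 h (SE 0.07, adjusted p = 2.77e-09). BIRC3 was higher with 8AA by 0.48 (adjusted p = 1.21e-04) and 0.41 (adjusted p = 1.95e-04), and NFKB2 by 0.38 (adjusted p = 0.00446) and 0.36 (adjusted p = 0.00193). ICAM1 was lower with 8AA, at −0.62 (SE 0.08, adjusted p = 4.87e-05) and −0.70 (SE 0.07, adjusted p = 1.87e-06).

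NFKBIA differed in KG-1a at 8 h (0.37, adjusted p = 0.00512) and NFKB1 at 24 h (−0.16, adjusted p = 0.0184). At 8 h the intervals of the 5 members not called lay between −0.38 and 0.55. NFKBIA at 24 h had an interval of −0.08 to 0.27, RELB 0.02 to 0.40 at an adjusted p of 0.0698, REL −0.15 to 0.37, RELA −0.17 to 0.10 and TRAF1 −0.22 to 0.61. The 8 h difference of NFKB2 was lost without 8AA replicate A (0.28, adjusted p = 0.0744) and that of NFKBIA without 8CA replicate A (0.26, 0.0996). The 24 h difference of NFKB1 was lost without 8CA replicate A (−0.14, 0.132) or 8AA replicate B (−0.10, 0.093), and it was −0.09 (adjusted p = 0.133) when libraries were scaled by their size only.

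In MV4-11, 2 of 9 members differed between the analogs at 8 h, where 6.66% of all genes did, and 1 of 9 at 24 h, where 21.2% did. At 8 h NFKBIA was higher with 8AA (0.26, SE 0.06, adjusted p = 0.0216) and TNFAIP3 lower (−0.47, SE 0.09, adjusted p = 0.00567). At 24 h ICAM1 was lower with 8AA (−0.49, SE 0.13, adjusted p = 0.0163). The intervals of the members not called lay between −0.47 and 0.74 at 8 h, the upper bound being that of TRAF1, and between −0.41 and 0.48 at 24 h. Each of these calls was lost without at least 1 library. The NFKBIA value was 0.25 (adjusted p = 0.116) and 0.27 (0.0807) without 8CA A or B and 0.26 (0.0751) and 0.26 (0.0845) without 8AA A or B. The TNFAIP3 value was −0.41 (0.059) without 8CA B and −0.39 (0.0579) without 8AA A. The ICAM1 value was −0.44 (0.0913) without 8CA B and −0.44 (0.108) without 8AA A.

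**Figure D4:**
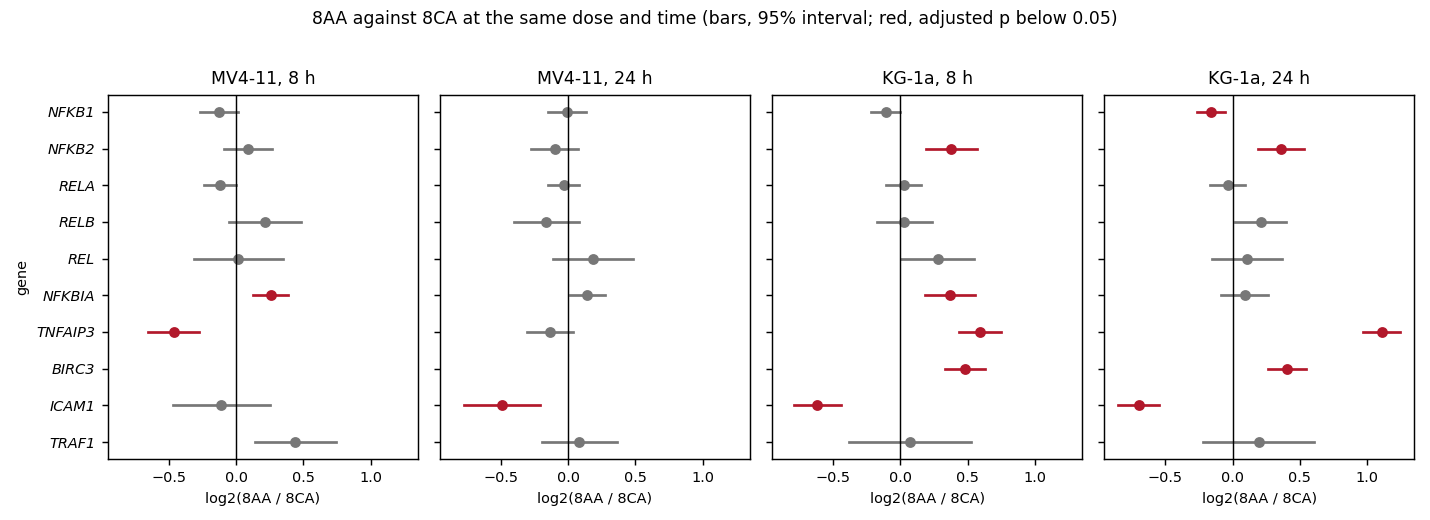
Log2 ratio of 8AA to 8CA for each gene in each line and time, with points for the estimate, bars for the 95% interval and red for an edgeR adjusted p below 0.05; BIRC3 has no value in MV4-11. In KG-1a, TNFAIP3, BIRC3 and NFKB2 lie to the right (higher with 8AA) and ICAM1 to the left at each time.

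Whether the response grew between 8 h and 24 h was tested as a difference of the responses. In KG-1a, 6 of 10 members responded more strongly upward at 24 h with 8CA, beside 23.9% of all genes with any difference. These were ICAM1 (0.64, SE 0.11, adjusted p = 6.53e-04), NFKB2 (0.62, adjusted p = 0.00253), RELB (0.48, 0.0207), BIRC3 (0.46, 0.00436), NFKBIA (0.42, 0.024) and TNFAIP3 (0.37, 0.0221). With 8AA, 5 of 10 did, beside 18.3%, namely TNFAIP3 (0.88, SE 0.10, adjusted p = 6.39e-05), RELB (0.66, 0.00337), NFKB2 (0.60, 0.00324), ICAM1 (0.56, 0.00307) and BIRC3 (0.39, 0.0137). For ICAM1 with 8AA this difference runs from a fall at 8 h to a value just above untreated at 24 h.

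In MV4-11, 0 of 9 members differed between times with 8CA by edgeR (1 at an unadjusted p under 0.05, and 0 with DESeq2), beside 16.3% of all genes, and 1 of 9 with 8AA, beside 4.63%. That gene was ICAM1 (−0.88, SE 0.23, adjusted p = 0.0366), whose untreated level itself rose between 8 h and 24 h. The call was lost without 7 of its 8 libraries, the exception being untreated 24 h replicate A, at values between −0.67 and −0.99 with adjusted p up to 0.148. In KG-1a with 8CA, 3 calls were each lost without several libraries: leaving out untreated 8 h replicate A gave 0.36 (adjusted p = 0.114) for RELB, 0.38 (0.0856) for NFKBIA and 0.25 (0.15) for TNFAIP3, and with it out 3 of the 6 calls remained. The other libraries whose absence lost them were 8CA 8 h B (0.40), untreated 24 h B (0.43) and 8CA 24 h B (0.46) for RELB, 8CA 8 h A (0.31), untreated 24 h B (0.37) and 8CA 24 h A (0.35) for NFKBIA, and 8CA 8 h A (0.36) or B (0.37), untreated 24 h A (0.30) and 8CA 24 h B (0.32) for TNFAIP3. BIRC3 with 8AA was lost without untreated 8 h B (0.28, 0.0911), 8AA 8 h A (0.35, 0.0671) or untreated 24 h B (0.35, 0.0714).

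Whether the response differed between the lines was tested in the same way. With 8AA at 24 h, the response of 4 of 9 members was lower in MV4-11 than in KG-1a (a negative signed difference), beside 22.3% of all genes with any difference: TNFAIP3 (−1.84, SE 0.11, adjusted p = 7.98e-11), NFKB2 (−0.82, SE 0.12, adjusted p = 3.03e-05), ICAM1 (−0.73, SE 0.15, adjusted p = 9e-04) and RELB (−0.52, SE 0.15, adjusted p = 0.0165). For ICAM1 this difference lies between a fall in MV4-11 (−0.53) and a small rise in KG-1a (0.22). With 8CA at 24 h, that of 2 of 9 was lower, beside 11.2%, namely ICAM1 (−0.93, SE 0.14, adjusted p = 9.5e-05) and TNFAIP3 (−0.59, SE 0.11, adjusted p = 6.57e-04). With 8AA at 8 h, 2 of 9 differed, beside 11.1%: TNFAIP3 was lower in MV4-11, where it fell, than in KG-1a, where it rose (−1.12, SE 0.12, adjusted p = 1.76e-06) and ICAM1 was higher there (0.74, SE 0.19, adjusted p = 0.0136). With 8CA at 8 h, 0 of 9 differed by edgeR (0 at an unadjusted p under 0.05, and 0 with DESeq2), beside 1.15%. The NFKBIA responses did not differ past the threshold in any of these 4 comparisons, with an interval of −0.42 to 0.01 with 8AA at 24 h. RELB with 8AA at 24 h was lost without MV4-11 untreated B (−0.50, adjusted p = 0.065), MV4-11 8AA A (−0.45, 0.0811), KG-1a untreated B (−0.47, 0.0644) or KG-1a 8AA A (−0.42, 0.0582), and ICAM1 with 8AA at 8 h without MV4-11 untreated B (0.64, 0.0926).

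The rest of the pathway moved in both directions, as genes at large did. Of 28 genes of the IKK complex and its adaptors, 27 were tested in each line, and with 8AA at 24 h 10 rose and 6 fell in KG-1a (median 0.06), where 25.4% of all genes were higher and 26.6% lower, and 2 rose and 3 fell in MV4-11 (median 0.04), where 13.9% and 15.3% were. With 8CA at 24 h, 7 rose and 4 fell in each line, beside 23.4% higher and 24.0% lower of all genes in KG-1a and 21.2% and 22.7% in MV4-11. A further list held 15 genes, named as other inhibitors and deubiquitinases. With 8AA at 24 h, 3 of 14 tested rose and 1 fell in KG-1a, and 1 of 15 rose in MV4-11 with none called lower by edgeR. Of the genes on this list, BCL3, an atypical IκB protein, rose in MV4-11 at 8 h with each analog. Whether BCL3 restrains the pathway in these cells was not tested. It went from 1.15 and 1.11 CPM to 3.29 and 3.22 with 8AA (1.52, SE 0.21, adjusted p = 6.27e-05). With 8CA it was at 1.82 and 2.06 CPM (0.77, adjusted p = 0.0451). The 8CA call was lost in the fit of 6 libraries (0.77, adjusted p = 0.0825) and without any of its libraries (0.68 to 0.85). In KG-1a, BCL3 rose with 8CA at 24 h (0.41, SE 0.09, adjusted p = 0.00214) and fell with 8AA at 8 h (−0.46, SE 0.10, adjusted p = 0.00264). That fall lost its call without untreated replicate A (−0.33).

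Of 19 receptors, 12 were tested in KG-1a, where 5 rose and 2 fell with 8AA at 24 h (median 0.28, beside 25.4% and 26.6% of all genes), and 13 in MV4-11, where 4 rose and 1 fell (median 0.21, beside 13.9% and 15.3%). TLR9, the receptor of unmethylated CpG DNA, rose in KG-1a at 24 h from 1.26 and 1.20 to 2.29 and 2.38 CPM with 8CA (0.92, SE 0.22, adjusted p = 0.00313) and to 3.67 and 3.004 with 8AA (1.45, SE 0.21, adjusted p = 2.66e-05). TLR5, the receptor of flagellin, fell in KG-1a with 8CA at 24 h from 1.51 and 1.47 to 0.42 and 0.70 CPM (−1.42, SE 0.35, adjusted p = 0.00358; 0.0522 at −1.10 without 8CA replicate A). TNFRSF13C, the BAFF receptor, was at 0.55 and 0.38 CPM untreated and 0.89 and 1.04 with 8CA at 24 h in KG-1a (1.02, adjusted p = 0.0429), and this call was lost without any of the 4 libraries (0.79 to 1.31).

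Of 44 other NF-kappaB targets, 30 were tested in KG-1a and 23 in MV4-11. Their calls at 24 h are set beside the shares of all genes, which were close to even between higher and lower. Whether the targets leaned further to lower calls than all genes was not tested. In KG-1a, 3 were higher and 9 lower with 8CA (median −0.12, beside 23.4% and 24.0% of all genes) and 6 and 7 with 8AA (−0.03, beside 25.4% and 26.6%). In MV4-11, 2 were higher and 9 lower with 8CA (−0.16, beside 21.2% and 22.7%) and 3 and 6 with 8AA (−0.12, beside 13.9% and 15.3%). TNF, the cytokine that activates the pathway and is its target, fell in MV4-11 in all 4 comparisons. It was at 11.8 and 11.9 CPM untreated at 8 h, at 7.14 and 7.04 with 8CA (−0.74, SE 0.11, adjusted p = 7.87e-04) and at 5.06 and 4.46 with 8AA (−1.32, SE 0.12, adjusted p = 1.36e-06). The 24 h levels of TNF were 13.0 and 15.0 untreated, at 7.82 and 8.29 with 8CA (−0.80, SE 0.10, adjusted p = 1.62e-05) and at 5.13 and 5.07 with 8AA (−1.46, SE 0.11, adjusted p = 5.67e-07). The treated libraries lay below the untreated ones throughout, and in KG-1a TNF had too few reads to be tested.

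Other targets with large changes were low in the line where they changed by that much. IER3, an early response gene, was at 0.75 and 0.72 CPM in untreated MV4-11 at 24 h, at 0.24 and 0.30 with 8CA (−1.43, adjusted p = 0.0298) and at 0.13 and 0.19 with 8AA (−2.16, adjusted p = 0.0105). SDC4, a syndecan, was at 0.84 and 0.99 CPM untreated and at 0.36 and 0.30 with 8CA at 24 h in MV4-11 (−1.46, adjusted p = 0.0113). It also passed there with 8AA at 8 h (−1.21, adjusted p = 0.0437), a call lost without 8AA replicate B (−0.59). In KG-1a, SDC4 was higher and rose with 8AA at 24 h, from 34.7 and 32.8 to 40.9 and 38.8 CPM (0.24, adjusted p = 0.0101). That rise lost its call without untreated replicate B (0.20). CCL20, a chemokine, was at 1.06 and 0.76 CPM untreated and at 0.50 and 0.39 with 8AA at 24 h in KG-1a (−1.01, adjusted p = 0.0332). Each of these calls was lost without at least 1 of its libraries. IER3 with 8CA was lost without any of the 4 (−1.27 to −1.60, adjusted p up to 0.155) and with 8AA without untreated A (−2.14, 0.0508) or 8AA A (−1.94, 0.0909). SDC4 with 8CA was lost without untreated B (−1.33, 0.0779) or 8CA B (−1.34, 0.0654), and with 8AA at 8 h also without untreated A (−1.26, 0.105) or B (−1.16, 0.149). CCL20 was lost without untreated A (−0.76, 0.227), 8AA A (−1.21, 0.061) or 8AA B (−0.86, 0.14).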

How the data were processed

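RNA of MV4-11 and KG-1a cells was extracted with the RNeasy Micro kit, per the labels, and sequenced. The submitters' processing notes name Trimmomatic, STAR 2.6.0, HTSeq 0.11.1, edgeR and the builds hg19 and hg38, with no roles. Annotation and strand use were not given in the sources used here. The deposited values are counts, whole numbers of reads for a gene in a library, not normalized by the authors, beside gene positions and exon lengths. How reads shared with a near-identical gene copy were counted was not given, so the counts of such genes may be affected.

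From the counts, genes were filtered with filterByExpr (minimum count 10) and TMM scaling was applied. edgeR 4.0.16 in R 4.3.3 (quasi-likelihood) was run per line on 12 libraries (12800 genes in MV4-11, 12711 in KG-1a), or on all 24 for differences between lines (14055 genes), with 1 coefficient per group. A call is a Benjamini-Hochberg adjusted p below 0.05 over all genes tested. Intervals are 95%. RPKM was computed from the counts and exon lengths. Alternatives were DESeq2 1.42.0, other scalings, filters and fits, and leaving out each library. Pathway genes are named where the log2 fold change was at least 1 in size and called, at most 6 per list, and 1 such gene is not reported here. The members and lists were chosen with earlier results of these data known. Depth was 18633963 to 24520078 counts per library.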

Additional observations from a re-analysis of the deposited data

Results flagged for a closer look

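Responses that differed between 8 h and 24 h, or between the lines, by the test of the difference itself are collected here, as log2 differences with no explanation. In KG-1a treated with 8CA, the response at 24 h minus that at 8 h was 0.62 for NFKB2, 0.48 for RELB, 0.42 for NFKBIA, 0.37 for TNFAIP3, 0.46 for BIRC3 and 0.64 for ICAM1. In KG-1a treated with 8AA, it was 0.60 for NFKB2, 0.66 for RELB, 0.88 for TNFAIP3, 0.39 for BIRC3 and 0.56 for ICAM1. In MV4-11 treated with 8AA, ICAM1 went the other way (−0.88), and this value lost its call without 7 of its 8 libraries.

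The response of MV4-11 minus that of KG-1a was −1.12 for TNFAIP3 and 0.74 for ICAM1 with 8AA at 8 h. With 8CA at 24 h it was −0.59 for TNFAIP3 and −0.93 for ICAM1. With 8AA at 24 h it was −0.82 for NFKB2, −0.52 for RELB, −1.84 for TNFAIP3 and −0.73 for ICAM1. The TNFAIP3 difference was negative in each of these 3 comparisons, and the 4 KG-1a comparisons share their untreated libraries by time. The libraries of KG-1a treated with 8AA for 24 h were also those that differed most from each other, and the part of that spread in these values was not tested.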

How the results depend on the processing

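Over 3050 alternative values of the members, 2783 kept their direction and their side of the threshold, 93 lost the call, 52 gained one, 0 reversed a call, and 122 changed sign where neither value was called. DESeq2 gave no adjusted p for 6 more values of members, which are left out. Members called moved as follows. In MV4-11 with 8AA at 8 h, 4 became 2 with DESeq2 and 2 in a fit of the 6 libraries of that time, and 1 to 2 without 1 library. With 8CA at 24 h, 0 became 2 with library size only, 2 with upper-quartile scaling, 1 with no filter, 1 with at least 10 counts in every library, 2 under the replicate block and 2 in the fit of 6 libraries. With 8AA at 24 h, 2 became 1 with DESeq2 and 0 to 2 without 1 library. For 8AA against 8CA in MV4-11, 2 at 8 h became 1 with DESeq2, 1 in the fit of 6 libraries and 0 to 1 without 1 library, and 1 at 24 h became 0 with DESeq2 and 0 to 1 without 1 library. For 24 h against 8 h in MV4-11, 0 with 8CA became 0 to 1 without 1 library, and 1 with 8AA became 0 with DESeq2 and 0 to 1 without 1 library. In KG-1a, 0 with 8CA at 8 h became 1 in the fit of 6 libraries, 7 with 8AA at 8 h became 4 to 7 without 1 library, and 6 for 24 h against 8 h with 8CA became 3 to 6. The untreated time difference in KG-1a went from 1 to 0 to 1 without 1 library. Between lines, 2 with 8AA at 8 h became 1 to 2 without 1 library, and 2 with 8CA at 24 h became 4 when every library had to hold at least 10 counts. The cause of these moves was not tested.

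The letters A and B did not pair the libraries throughout: deviations of same-lettered libraries correlated at −0.117 to 0.159 in MV4-11 and −0.0846 to 0.161 in KG-1a over 15 pairs of groups each. Among the 3 groups of MV4-11 at 8 h they were 0.132, 0.157 and 0.159, and with the replicate block 5 members, RELA added, were called there with 8AA. Over all comparisons the replicate block gained 5 calls of members and lost 0. Alternatives for the untreated comparisons, the named pathway genes and the split of all calls by scaling were chosen after seeing the data. With 2 libraries per group, a lone library is assumed to vary like the other groups when its partner is left out. Low genes such as TRAF1 in KG-1a, at 40 to 75 reads per library, have wide intervals.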

Other observations

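The genes whose level followed TNFAIP3 and NFKB2 most closely were looked up as a description, over the 24 libraries after centring within each line, among 11406 genes tested in both lines. For TNFAIP3 the highest Pearson correlations were with PHF12 (0.91), LOC100130476 (0.91), the antisense gene that overlaps it, and KDM6B (0.91), a histone demethylase. For NFKB2 they were with JARID2 (0.94), a partner of the Polycomb complex, TSPOAP1-AS1 (0.94) and KHNYN (0.94). The libraries share their treatments, depth and scaling, so these values say nothing of shared control.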
